A study of Mus musculus with 9 samples.

Results

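Embryoid body cultures of wild-type mouse embryonic stem cells were sampled in 3 groups, and the libraries labelled EBD6 were compared with those labelled EBD2 over all expressed genes. The comparison uses 6 of the 9 libraries of the series, 3 of each group. Both groups have the genotype WT and the source embryonic stem cells, and they differ in the labelled treatment, EBD6 or EBD2 differentiation. The labels do not say what the number stands for, whether replicates came from separate cultures, or which cell line was used. The third group of the series, EBD5, entered the statistical fit and is described beside the chromosome medians. The series set out to study gene expression during this differentiation.

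Embryoid bodies are aggregates of pluripotent cells that form, in suspension, tissues of the early embryo. Their outer cells become primitive endoderm, which gives rise to the visceral endoderm, a polarized epithelium that takes up and secretes nutrients, and to the parietal endoderm, which lays down a thick basement membrane. The inner cells pass through an epiblast-like state, from which mesoderm, definitive endoderm and ectoderm arise under Nodal, Wnt, BMP and FGF signals.

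The EBD2 libraries held 5613463 to 5884870 counts and the EBD6 libraries 5454268 to 11704761. EBD2 replicates 1 and 2 and EBD6 replicates 2 and 3 agree within sampling noise (chi-square per gene 0.949 and 1.01), while the other pairs of these groups did not (2.23 to 4.31). Each such pair was summed and counted as 1 sample, so that n = 2 for EBD2 and n = 2 for EBD6, and the p-values reflect no more than the spread of these samples, possibly a technical one. Where EBD2 replicate 3 or EBD6 replicate 1 is left out below, its group has 1 sample, which is assumed to vary like the other groups. Levels are given in CPM, library-scaled counts per 1000000 after TMM scaling, in the order of replicates 1 to 3. Log2 fold changes are EBD6 over EBD2, with their standard error (SE) after the ± sign. The source label was met by stem cell markers in every library of both groups, with Pou5f1, Sox2 and Nanog at 161 CPM or more. Ribosomal RNA genes took 0.0165% to 0.0207% of counts in EBD2 and 0.0192% to 0.0247% in EBD6, and across 13746 protein-coding genes the log2 fold change had a Spearman rho of 0.17 with GC content and -0.02 with length (a description across genes, which are not independent).

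Most of the expressed genes differed between EBD6 and EBD2. Of 16168 tested genes 5457 were higher in EBD6 (33.8%) and 5228 lower (32.3%) by edgeR's quasi-likelihood test at an adjusted p under 0.05. Tested against a fold of 1.5, a stricter rule, 2655 were higher (16.4%) and 2263 lower (14.0%). Large changes were more often rises: 642 called genes were over 8-fold higher and 300 over 8-fold lower, and 399 against 100 over 16-fold. Of genes with at least 10 CPM in one group and under 1 CPM in the other, 144 were high in EBD6 and 16 in EBD2. The median log2 fold change of all tested genes was 0.01, which is the value to hold the lists against. A gene that passed the filter on low counts only through the group where it was high had to differ, so the counts below are descriptions, over the members that were tested. These are bulk libraries, in which fewer cells of a type and less RNA per cell cannot be told apart.

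**Figure D1:**
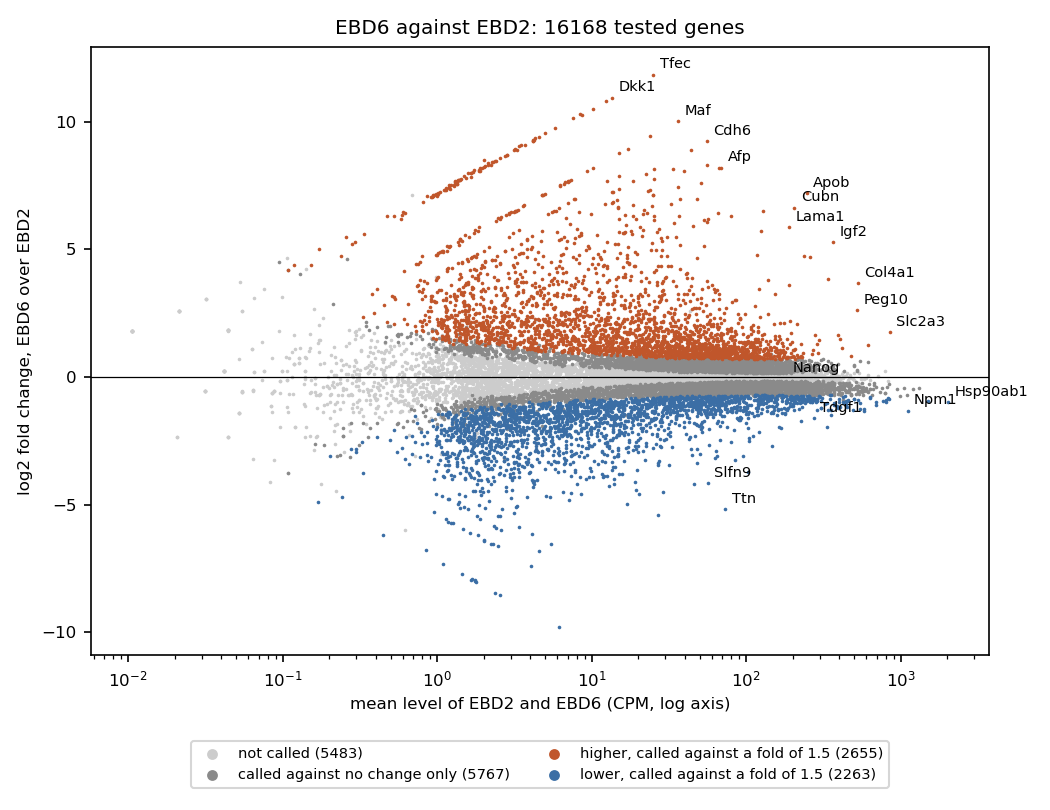
Each point is 1 of 16168 tested genes, with its mean level in EBD2 and EBD6 (CPM, log axis) and its log2 fold change, coloured by its call. The rises reach further from 0 than the falls, with 642 called genes over 8-fold higher and 300 over 8-fold lower, and the diagonal lines of points are genes with 0 or few counts in one group, whose fitted fold is not a bound.

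Of the 49 lists, those of secreted proteins of the visceral endoderm, of the anterior visceral endoderm and organizer, and of endoderm transcription factors had the highest medians, and the transcription factor genes are given first. Of 15 tested transcription factor genes of the endoderm (17 listed), 13 rose and 2 fell, with a median log2 fold change of 3.45. With the fold of 1.5 as the null, 11 rose and 0 fell. Gata4 and Gata6 encode zinc finger factors at the head of the primitive endoderm programme. Gata4 (chromosome 14) stood at 11.6, 9.71 and 10.3 CPM in EBD2 and 110.0, 122 and 118 CPM in EBD6, a fold of 10.95 (log2 3.45 ± 0.09; edgeR adjusted p = 3.43e-10). Gata6 stood at 2.74, 3.62 and 2.49 CPM against 39.6, 46.2 and 45.2 CPM (log2 3.87 ± 0.15; edgeR adjusted p = 5.92e-09). Both were already detected in every EBD2 library, and the groups lay far apart. Sox17 and Foxa2, which act in visceral and definitive endoderm alike, started lower. Sox17 stood at 0.171, 0.329 and 1.07 CPM against 41.4, 51.8 and 46.5 CPM (log2 6.43 ± 0.28, or 7.43 without EBD2 replicate 3, which held most of its EBD2 counts). Foxa2 stood at 0.342, 0.329 and 0.712 CPM against 42.1, 44.1 and 45.7 CPM (log2 6.54 ± 0.22). Hnf4a, the nuclear receptor that governs the secretory genes of visceral endoderm and liver, went from 5.99, 7.57 and 7.30 CPM to 61.9, 70.03 and 71.8 CPM, a fold of 9.62.

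The largest changes of the list were in genes almost without counts in EBD2. Tfec, of the MiT family of lysosome and pigment factors, had no count in EBD2 and 49.9, 52.1 and 50.8 CPM in EBD6, at least 307-fold higher (against 3 counts over the group). Maf, a large Maf factor, had 1 count in EBD2, in replicate 2, and 72.2, 75.4 and 73.4 CPM in EBD6, a depth-scaled ratio of 1330 (95% counting interval 239 to 52600). Sox7, a partner of Sox17 in primitive endoderm, rose 107-fold to 31.9, 41.3 and 42.9 CPM. Hhex, a factor of anterior endoderm, fell from 20.2, 25.3 and 23.3 CPM to 16.9, 17.7 and 18.3 CPM (edgeR adjusted p = 0.00811). This call ended without EBD2 replicate 2 (edgeR adjusted p = 0.0516), with no filter on low counts (edgeR adjusted p = 0.0649) and with DESeq2 (DESeq2 adjusted p = 0.0681).

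Genes for secreted proteins of the visceral endoderm rose together. Of 21 tested (24 listed) 17 rose and 2 fell, with a median log2 fold change of 4.0, and against a fold of 1.5 it was 17 and 0. The upstream sequences of Afp, Apob and Fgb are shown because their rises are among the largest of the list and each holds a short motif known from such genes, GATAAG (bound by GATA factors) or GTTAAT (a homeodomain motif known from liver genes), on either strand. They are the 250 bases before the RefSeq start, 5′ to 3′ on the gene's strand (GRCm38.p6), with the motif in capitals.
Afp (chr5:90490464-90490713, plus strand; GTTAAT): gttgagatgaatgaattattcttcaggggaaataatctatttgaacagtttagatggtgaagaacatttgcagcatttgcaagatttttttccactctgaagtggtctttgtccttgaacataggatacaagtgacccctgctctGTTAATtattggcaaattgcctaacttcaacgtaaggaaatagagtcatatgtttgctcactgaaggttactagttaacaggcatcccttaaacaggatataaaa
Apob (chr12:7977427-7977676, plus strand; CTTATC, which is GATAAG on the other strand): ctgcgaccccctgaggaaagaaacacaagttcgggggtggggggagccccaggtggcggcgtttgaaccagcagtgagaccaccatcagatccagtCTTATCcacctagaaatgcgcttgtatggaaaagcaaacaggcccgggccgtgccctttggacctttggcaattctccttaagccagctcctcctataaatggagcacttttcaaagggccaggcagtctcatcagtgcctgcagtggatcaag
Fgb (chr3:83049864-83050113, minus strand; ATTAAC, which is GTTAAT on the other strand): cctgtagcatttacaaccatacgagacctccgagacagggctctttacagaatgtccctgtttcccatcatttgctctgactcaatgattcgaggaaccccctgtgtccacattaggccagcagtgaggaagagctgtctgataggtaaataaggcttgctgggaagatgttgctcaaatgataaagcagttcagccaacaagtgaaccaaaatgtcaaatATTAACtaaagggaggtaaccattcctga
The capitals begin 105, 154 and 29 bases before the start. In 300-base windows that reach 50 bases past the start, GATAAG was in 4.73% and GTTAAT in 4.13% of the 11230 tested genes with a RefSeq promoter. Among 30 genes of the endoderm lists that were higher, 5 held GATAAG (16.7%) and 5 held GTTAAT (16.7%). For 2 other motifs searched on both strands, 3 of the 30 held TTGCAT (10%, against 6.90% of all tested) and 2 held CACGTG (6.67%, against 10.2%). Of all 1853 genes higher by more than 1.5-fold, 5.50% held GATAAG and 4.43% GTTAAT, and of 1427 lower genes 5.05% and 4.56%. None of the 4 motifs contains another, and a match is a description of the letters, not of a bound site.

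Afp (chromosome 5, 90490737 to 90508907, plus strand) encodes alpha-fetoprotein, the main serum protein of the yolk sac. It stood at 0.684, 0.329 and 0.356 CPM in EBD2 and 147, 134 and 129 CPM in EBD6, a fold of 294 (log2 8.20 ± 0.16; edgeR adjusted p = 1.2e-10). Afp had 8 counts over the EBD2 libraries together and stood at 129 CPM or more in all EBD6 libraries. Apob, the structural protein of lipoprotein particles, went from 4.45, 3.46 and 2.14 CPM to 513, 482 and 474 CPM (log2 7.21 ± 0.15; edgeR adjusted p = 1.28e-10). Apoa1, the main apolipoprotein of high-density particles, went from 0.171, 0.658 and 0 CPM to 49.8, 44.1 and 42.8 CPM (log2 7.26 ± 0.27, or 8.81 without EBD2 replicate 2). Fgb, the fibrinogen beta chain, had 1 count in EBD2, in replicate 3, and 34.4, 35.1 and 33.9 CPM in EBD6 (ratio 621, 95% counting interval 111 to 24500). Ttr, the thyroxine carrier transthyretin, had 3 counts in EBD2 and 95.6, 78.5 and 82.4 CPM in EBD6 (ratio 501, 95% counting interval 171 to 2430; 2 of the 3 counts were in replicate 3). Apoa4 had no count in EBD2 and 10.9, 11.02 and 13.98 CPM in EBD6, at least 73.6-fold higher, although 69.8% of its exon bases overlap another gene. Apoe and Apoc1, apolipoprotein genes already expressed in EBD2, did not rise by this test. Apoe stood at 403, 408 and 520.3 CPM against 513, 459 and 461 CPM with no call (edgeR adjusted p = 0.581), and without EBD2 replicate 3, which leaves 1 EBD2 sample and takes its spread from the other groups, it was called higher at a log2 fold change of 0.25. Apoc1 stood at 35.8, 37.4 and 44.9 CPM against 36.9, 26.95 and 28.4 CPM (log2 -0.37 ± 0.14, called lower). This fall lost its call with DESeq2 (DESeq2 adjusted p = 0.0929) and with EBD2 and EBD6 alone in the fit (edgeR adjusted p = 0.0517). It also lost it without EBD2 replicate 3, which leaves 1 EBD2 sample, at a log2 fold change of -0.23.

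The machinery by which the visceral endoderm takes up protein rose with its products. Of 14 tested genes of this group 12 rose and 1 fell, with a median log2 fold change of 2.24 (11 and 0 against a fold of 1.5). Cubn encodes cubilin, the large endocytic receptor, and Amn encodes amnionless, which anchors cubilin in the membrane. Cubn (chromosome 2) went from 4.28, 3.95 and 4.09 CPM to 415, 408 and 403 CPM, a fold of 99.4 (log2 6.64 ± 0.11; edgeR adjusted p = 4.94e-11). Amn had 3 counts in EBD2 and 45.3, 57.6 and 56.2 CPM in EBD6 (ratio 328, 95% counting interval 112 to 1590). Dab2, the adaptor that links these receptors to clathrin, rose from 16.4, 16.3 and 18.7 CPM to 486, 436 and 433 CPM (26.6-fold). Lrp2 encodes megalin, the partner receptor of cubilin. It was high in both groups, at 301, 303 and 306 CPM against 258, 274 and 272 CPM, a fall of 0.19 on the log2 scale whose call ended in 4 of 16 alternatives, among them the fits without EBD2 replicate 3 and without EBD6 replicate 1, each of which leaves a group with 1 sample, and the fit of EBD2 and EBD6 alone. The 2 partner receptors thus stood apart in these libraries, Cubn being 99.4-fold up and Lrp2 1.14-fold down. The lysosomal protease Ctsh rose from 1.71, 1.81 and 0.890 CPM to 140.0, 120.4 and 123 CPM and the zinc and iron carrier Slc39a8 from 1.71, 1.32 and 1.60 CPM to 116, 109 and 109 CPM.

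The 9 tested genes of the parietal endoderm list (10 listed) all rose, with a median log2 fold change of 3.01, and 8 did so against a fold of 1.5. Plat, tissue plasminogen activator, went from 1.20, 0.658 and 0.890 CPM to 72.04, 74.9 and 73.4 CPM (79.00-fold). Pdgfra, a receptor of primitive endoderm and mesoderm, went from 1.37, 1.48 and 1.60 CPM to 103, 109 and 111 CPM (71.3-fold). Krt19, a keratin of simple epithelia, went from 1.71, 1.32 and 1.78 CPM to 114, 109 and 105 CPM. These 3 genes differed by 68.1-fold to 79.0-fold, and their EBD2 libraries were all under 2 CPM. Of 14 basement membrane genes 9 rose and 2 fell (median log2 0.93; 7 and 0 against a fold of 1.5). Laminin alpha 1 and type IV collagen are the core of the sheet that primitive endoderm secretes. Lama1 went from 6.50, 7.74 and 4.98 CPM to 371, 385 and 383 CPM, a fold of 58.9 (log2 5.88 ± 0.11; edgeR adjusted p = 1.2e-10). Col4a1 went from 86.9, 86.9 and 67.5 CPM to 1005, 996 and 975 CPM and Col4a2, its neighbour on chromosome 8, from 49.4, 50.5 and 38.6 CPM to 644, 642 and 633 CPM. The collagen-binding protein gene Sparc rose 3.11-fold. The nidogen genes, whose products join laminin to collagen IV, did not rise. Nid1 stood at 141, 139 and 147 CPM against 106, 115 and 118 CPM (log2 -0.35 ± 0.07, lower) and Nid2 at 341, 340.4 and 357 CPM against 329, 346 and 349.9 CPM with no call (edgeR adjusted p = 0.604).

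**Figure D2:**
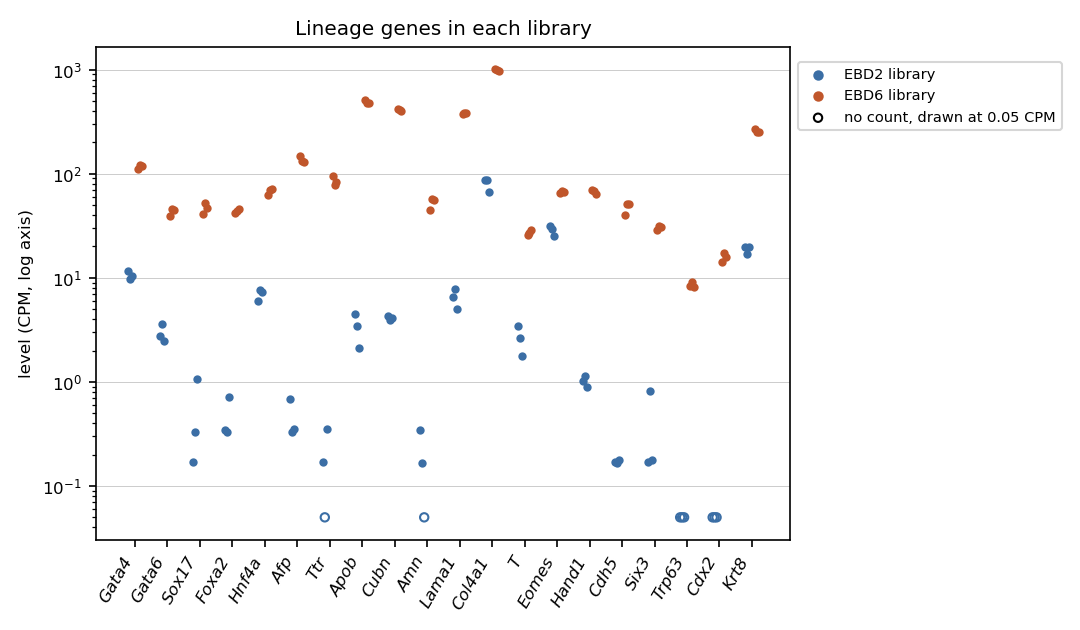
Each point is 1 library (blue EBD2, orange EBD6) and its level in CPM on a log axis for 20 lineage genes, with open circles for no count drawn at 0.05 CPM. The genes shown were picked after their values were seen, and all rose. The groups do not overlap for any of them, and the gap is smallest for Eomes (2.33-fold). Of all 16168 tested genes, 6120 were higher and 5876 lower in EBD6 without overlap.

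Patterning genes of the anterior visceral endoderm and the organizer, the sources of head-inducing antagonists, also rose. Of 12 tested genes 9 rose and 2 fell, with a median log2 fold change of 3.60 and the same counts against a fold of 1.5. Dkk1, a secreted Wnt antagonist, had no count in EBD2 and 28.7, 25.1 and 27.2 CPM in EBD6, at least 160.0-fold higher. Cer1, an antagonist of Nodal, BMP and Wnt, had 1 count in EBD2, in replicate 3, and 9.99, 9.29 and 10.8 CPM in EBD6 (ratio 181, 95% counting interval 32.3 to 7190). Cyp26a1, whose enzyme degrades retinoic acid, went from 0.342, 0.329 and 0.356 CPM to 53.7, 47.2 and 47.2 CPM (139.6-fold). The homeobox gene Lhx1 went from 0.513, 0.329 and 0.534 CPM to 46.5, 50.2 and 52.3 CPM (105-fold). The 2 members that fell are shared with the epiblast. Otx2, a homeobox factor of epiblast and anterior tissue, fell from 238, 241 and 258 CPM to 99.3, 91.4 and 90.7 CPM (log2 -1.40 ± 0.07; edgeR adjusted p = 4.27e-08), and Lefty1, a Nodal inhibitor, from 126, 122 and 131 CPM to 54.4, 56.8 and 56.9 CPM.

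Genes of pluripotency were lower in part, and much less than endoderm genes were higher. Of 12 core pluripotency genes 7 fell and 2 rose (median log2 -0.63; 6 and 1 against a fold of 1.5). Of 13 formative and primed epiblast genes 9 fell and 2 rose (median log2 -0.70; 6 and 1). Of 12 naive pluripotency genes 6 fell and 4 rose (median log2 -0.18; 1 and 4). Pou5f1 (chromosome 17) encodes Oct4, without which pluripotency is lost. It stood at 237, 233 and 302 CPM in EBD2 and 199, 177 and 178 CPM in EBD6, a fall of 0.51 on the log2 scale (edgeR adjusted p = 0.00127) that did not pass against a fold of 1.5. Sox2, the partner of Oct4, went from 339, 335 and 375 CPM to 199, 168 and 170.0 CPM (log2 -0.96 ± 0.09; edgeR adjusted p = 5.32e-06). In both genes EBD2 replicate 3 was the highest library, and the groups did not overlap. Nanog stood at 178, 179.7 and 195 CPM against 201, 166 and 161 CPM with overlapping groups and no call (edgeR adjusted p = 0.673). It lies on chromosome 6, whose genes were higher as a whole in EBD6. With the median of that chromosome removed, an alternative chosen after seeing the data, its log2 fold change was -0.53 and was called lower (edgeR adjusted p = 0.00078).

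The largest falls among the core genes were in Tdgf1 and Dppa5a. Tdgf1, the Nodal co-receptor Cripto, went from 400.4, 404 and 432 CPM to 153, 125 and 125 CPM (3.03-fold lower). Dppa5a, an RNA-binding protein of pluripotent cells, went from 147, 159 and 180.5 CPM to 86.5, 61.8 and 60.5 CPM (2.34-fold lower). Fgf4, the ligand that drives epiblast cells out of the naive state, fell from 235, 240.0 and 259.9 CPM to 105, 109 and 104 CPM (log2 -1.23 ± 0.07). Fgf5, a marker of the primed epiblast, fell from 82.3, 82.95 and 83.5 CPM to 59.6, 55.8 and 56.2 CPM, a change that did not pass against a fold of 1.5. Sall4 went the other way, from 162, 164 and 158 CPM to 309, 319 and 301 CPM. Sall4 encodes a zinc finger factor used in both pluripotent cells and primitive endoderm. Within the naive list, Zfp42 (Rex1) and Esrrb had no call, at log2 fold changes of -0.07 ± 0.15 and -0.12 ± 0.07. Against 6 members that fell, 1 of them also against a fold of 1.5, Klf4, Tbx3 and Tfcp2l1 were among the 4 that rose. Klf4 went from 20.5, 18.9 and 15.5 CPM to 47.3, 53.5 and 52.5 CPM, Tbx3 from 39.2, 33.4 and 31.9 CPM to 98.1, 109.8 and 112 CPM and Tfcp2l1 from 60.6, 58.9 and 53.2 CPM to 145, 158 and 153 CPM. Each of these also passed against a fold of 1.5, and none of them is expressed in pluripotent cells alone.

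**Figure D3:**
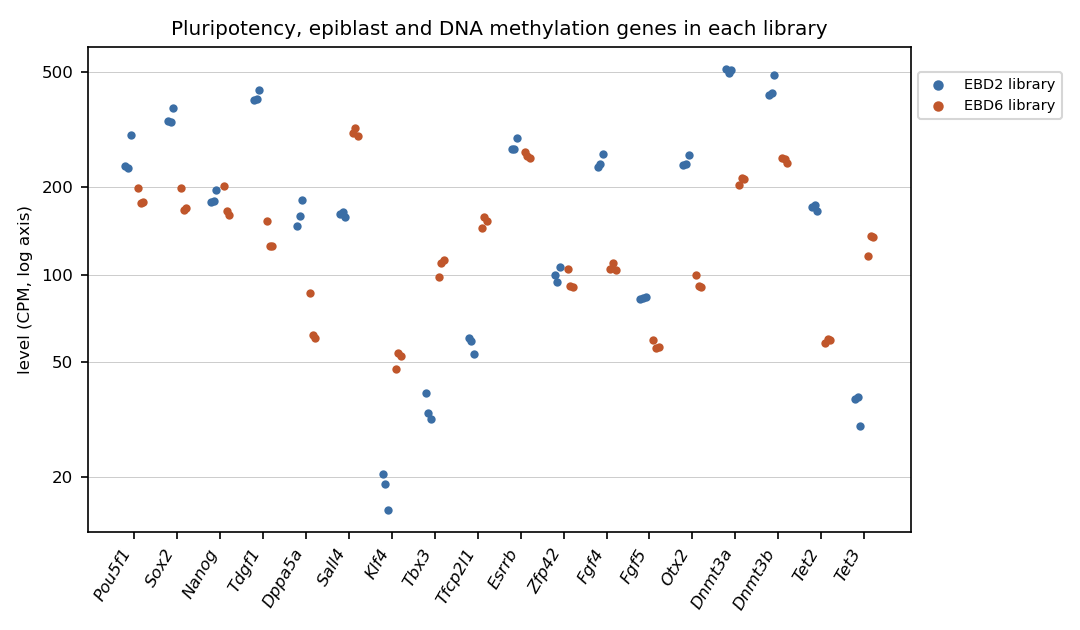
Each point is 1 library (blue EBD2, orange EBD6) and its level in CPM on a log axis for 18 genes of pluripotency, epiblast and DNA methylation. Tdgf1, Dnmt3a and Tet2 lie lower in EBD6 and Klf4, Tbx3, Tfcp2l1 and Tet3 higher, while the libraries of Nanog, Zfp42 and Esrrb overlap or nearly touch.

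Genes that write and read DNA methylation and silence retroelements were mostly lower. Of 15 tested 12 fell and 1 rose, with a median log2 fold change of -0.29 (6 and 1 against a fold of 1.5). The de novo methyltransferase gene Dnmt3a went from 511, 496 and 509 CPM to 203, 216 and 214 CPM (2.42-fold lower; edgeR adjusted p = 5.14e-08), and Dnmt3b from 417, 424 and 486 CPM to 252, 250.1 and 243 CPM. Hells, a chromatin remodeller needed for methylation, went from 521, 540.2 and 599.9 CPM to 307, 273 and 264 CPM. The enzymes that oxidize methylcytosine moved in opposite directions. Tet2 fell from 171, 174 and 165 CPM to 58.3, 59.9 and 59.7 CPM (log2 -1.51 ± 0.06), and Tet3, on chromosome 6, rose from 37.1, 37.9 and 30.1 CPM to 116, 136 and 135 CPM (log2 1.88 ± 0.11). Of 20 Polycomb genes 9 fell and 3 rose with a median near 0 (log2 -0.06). Phc1, a subunit of the first complex, fell 1.90-fold, and Phf19, an accessory subunit of the second, rose 4.02-fold from 13.2, 13.5 and 14.4 CPM to 49.9, 57.7 and 60.6 CPM. The 5 tested members of the two-cell-like list, markers of scarce cells that resemble the cleavage embryo, all fell (15 listed; median log2 -5.66), and 12 were called lower when no filter on low counts was used. Zscan4a had 120 counts in EBD2 and 3 in EBD6 (ratio 64.4, 95% counting interval 21.5 to 316), and its family consists of close copies, so single values are uncertain.

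Primitive streak and mesoderm genes rose. Of 10 tested streak genes (14 listed) 8 rose and 1 fell, with a median log2 fold change of 2.81. T, the Brachyury factor of nascent mesoderm, went from 3.42, 2.63 and 1.78 CPM to 25.7, 27.2 and 29.01 CPM (10.4-fold; edgeR adjusted p = 8.55e-08). Eomes, which acts before T and also in visceral endoderm, was already present and went from 31.3, 29.5 and 25.5 CPM to 64.9, 67.7 and 67.1 CPM. The homeobox genes Mixl1 and Evx1 rose 14.6-fold and 51.2-fold. Sp5, a direct Wnt target, had 1 count in EBD2, in replicate 1, and 13.6, 15.3 and 16.7 CPM in EBD6 (ratio 280.0, 95% counting interval 50.1 to 11100). Of 14 tested genes of lateral and extraembryonic mesoderm (17 listed) 10 rose and 1 fell (median log2 1.66). Hand1, a helix-loop-helix factor of extraembryonic mesoderm and trophoblast, went from 1.03, 1.15 and 0.890 CPM to 69.4, 68.4 and 63.9 CPM (64.9-fold; edgeR adjusted p = 4.14e-10). Tbx20, a T-box factor of heart mesoderm, rose 33.9-fold to 7.85, 8.20 and 8.57 CPM, and Msx2, a BMP target, rose 19.7-fold to 31.2, 29.5 and 30.5 CPM. In all 3 genes the EBD2 libraries were at most 1.65 CPM.

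Endothelial and blood genes split. Of 16 tested (22 listed) 9 rose and 5 fell, with a median log2 fold change of 0.52. Cdh5, the cadherin of endothelial junctions, had 3 counts in EBD2 and 39.8, 50.7 and 50.8 CPM in EBD6 (ratio 292, 95% counting interval 99.7 to 1420). Gata2 rose from 2.05, 2.14 and 0.712 CPM to 45.7, 55.00 and 57.8 CPM, and the VEGF receptor genes Kdr and Flt1 rose 26.7-fold and 14.8-fold, to 9.45, 10.3 and 8.89 CPM and 73.5, 82.9 and 85.3 CPM. Runx1, needed for definitive blood, rose 18.9-fold to 15.3, 20.8 and 20.6 CPM. Tal1, the factor at the head of blood formation, went the other way, from 8.38, 10.9 and 9.79 CPM to 1.07, 1.64 and 2.10 CPM (log2 -2.54 ± 0.26; edgeR adjusted p = 8.55e-06). Flt4 fell from 21.6, 23.04 and 16.7 CPM to 7.31, 10.7 and 9.13 CPM, and Pecam1, which pluripotent cells also express, from 150.3, 156 and 154 CPM to 83.1, 79.95 and 82.4 CPM. The 2 receptor genes Kdr and Flt4 thus moved in opposite directions. Heart and muscle genes split as well, with 6 of 12 tested (17 listed) higher and 5 lower. The smooth muscle genes moved in both directions. Acta2 and Tagln rose, Acta2 from 1.88, 2.14 and 1.96 CPM to 79.4, 67.7 and 68.05 CPM and Tagln from 6.50, 3.95 and 4.45 CPM to 56.7, 49.1 and 47.5 CPM (67.9% of the exon bases of Tagln overlap another gene), while Cnn1, smooth muscle calponin, fell from 16.9, 13.5 and 15.3 CPM to 4.64, 6.65 and 6.30 CPM (2.58-fold lower; edgeR adjusted p = 4.68e-05). Ttn, the giant sarcomere protein, fell from 154, 149 and 137 CPM to 3.57, 4.28 and 4.04 CPM, a fold of 35.9 (log2 -5.17 ± 0.12; edgeR adjusted p = 1.45e-10).

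The ectoderm and trophoblast lists were mostly higher. Of 15 tested neuroectoderm genes (20 listed) 8 rose, 2 fell and 5 had no call (median log2 0.91). Six3, a forebrain homeobox factor, went from 0.171, 0.823 and 0.178 CPM to 28.9, 31.7 and 30.5 CPM (73.3-fold; log2 6.20 ± 0.27, or 7.32 without EBD2 replicate 2), and Zic1 from 0.342, 0.494 and 0.178 CPM to 16.2, 15.03 and 14.5 CPM. Rax, the eye field factor, fell from 6.67, 4.28 and 4.81 CPM to 1.07, 0.729 and 0.889 CPM (27.4% of its exon bases overlap Raxos1). Other neural genes, already present in EBD2, did not pass. Sox1 stood at 60.2, 62.05 and 61.9 CPM against 57.96, 61.5 and 59.4 CPM, Tubb3 at 32.3, 31.9 and 31.9 CPM against 32.99, 36.5 and 36.3 CPM and Pax6 at 55.6, 57.8 and 50.2 CPM against 48.3, 44.2 and 47.9 CPM (edgeR adjusted p = 0.0753, and called lower in 5 of 16 alternatives). Of 8 tested neural crest genes (10 listed) 4 rose and 2 fell (median log2 0.42). Sox9 rose 46.9-fold to 17.5, 17.3 and 15.2 CPM, while Foxd3, also a factor of pluripotent cells, fell from 32.3, 37.9 and 29.5 CPM to 11.4, 17.5 and 15.6 CPM. Of 8 tested surface ectoderm genes (13 listed) 7 rose and 1 fell (median log2 1.74). Grhl2 was the member that fell, from 89.8, 85.3 and 82.9 CPM to 30.3, 37.8 and 36.3 CPM (2.48-fold lower; edgeR adjusted p = 5.1e-07). Trp63, the factor of stratified epithelia, had no count in EBD2 and 8.38, 9.02 and 8.08 CPM in EBD6, at least 51.0-fold higher. Dlx3 and Gata3, shared with trophoblast, rose 50.6-fold and 17.4-fold.

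The 14 tested trophoblast and placenta genes (19 listed) all rose, with a median log2 fold change of 3.06 and the same count against a fold of 1.5. Cdx2, a factor of trophoblast and of the posterior embryo, had no count in EBD2 and 14.1, 17.2 and 15.9 CPM in EBD6, at least 96.3-fold higher. Plac1 rose from 0.342, 0 and 0.534 CPM to 30.9, 28.5 and 28.8 CPM (log2 6.62 ± 0.27, or 7.35 without EBD2 replicate 3). Tpbpa, of the spongiotrophoblast, had 1 count in EBD2, in replicate 2, and 5.35, 6.92 and 6.63 CPM in EBD6 (ratio 117, 95% counting interval 20.7 to 4640). Peg10, a retrotransposon-derived imprinted gene that the placenta needs, was already at 149.5, 151 and 148 CPM and rose to 976, 844 and 850.5 CPM (6.10-fold).

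**Figure D4:**
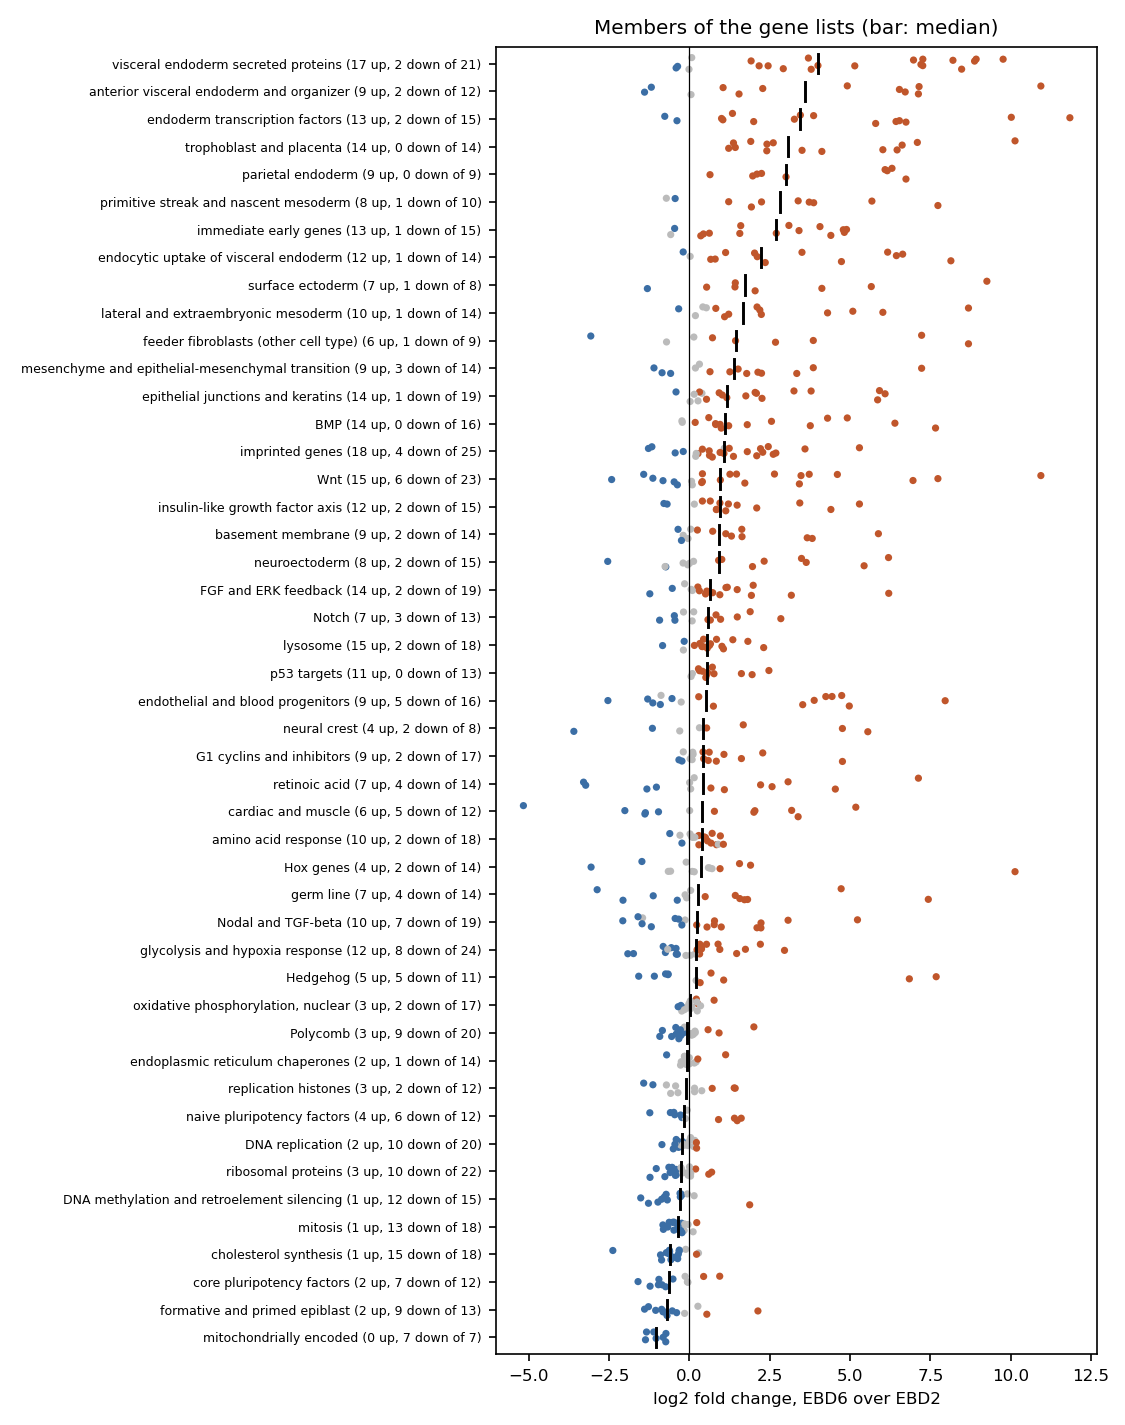
Each point is a tested gene with its log2 fold change (orange called higher, blue called lower, grey no call), by list, and the bar is the list's median. Lists with at least 7 tested members are shown, with the secreted proteins of the visceral endoderm highest (median 4.0) and the mitochondrially encoded genes lowest (median -1.04), against 0.01 for all tested genes.

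Genes of epithelial junctions and keratins rose, while the main epithelial cadherin had no call. Of 19 junction and keratin genes 14 rose and 1 fell (median log2 1.16). Krt8 and Krt18 encode the paired keratins of simple epithelia. Krt8 went from 19.7, 16.8 and 19.8 CPM to 269, 253 and 250.4 CPM (13.8-fold) and Krt18 from 79.2, 75.9 and 87.2 CPM to 375, 321 and 325 CPM (4.24-fold). Krt7 rose 60.3-fold, the desmosome gene Dsp 9.54-fold and the gap junction gene Gjb2 57.96-fold. Cdh1 stood at 429.7, 419 and 458 CPM against 474, 425 and 423 CPM with no call (edgeR adjusted p = 0.809), and Epcam fell from 233, 228 and 250.1 CPM to 189.9, 174 and 169 CPM. Of 14 tested genes of mesenchyme and of the epithelial to mesenchymal transition (18 listed) 9 rose and 3 fell (median log2 1.39). Cdh2, the cadherin of mesenchyme and neural tissue, was among those that rose, from 9.92, 10.9 and 8.72 CPM to 42.1, 44.6 and 42.6 CPM. Outside the lists, the podocalyxin gene Podxl rose 2.81-fold and Amot, a regulator of cell polarity and of YAP, went from 20.7, 19.3 and 18.9 CPM to 545, 474 and 464 CPM (25.8-fold).

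Among the signalling lists, that of BMP had no member called lower. Of 16 tested BMP genes (17 listed) 14 rose and none fell (median log2 1.11; 12 and 0 against a fold of 1.5). The ligand gene Bmp2 had 3 counts in EBD2 and 35.5, 38.1 and 39.1 CPM in EBD6 (ratio 228, 95% counting interval 77.9 to 1110), and the target Id3 went from 3.25, 4.11 and 4.45 CPM to 55.1, 54.4 and 51.8 CPM (13.6-fold). Wnt pathway genes rose in 15 of 23 and fell in 6 (median log2 0.96). The ligand gene Wnt11 had 2 counts in EBD2 and 14.8, 17.6 and 15.6 CPM in EBD6 (ratio 146, 95% counting interval 40.1 to 1210), and the effector gene Tcf7 fell from 154, 159 and 164 CPM to 54.9, 62.5 and 63.1 CPM. Of 19 FGF and ERK feedback genes 14 rose and 2 fell (median log2 0.65). Fgf10 went from 0.513, 0.823 and 0.178 CPM to 38.5, 37.8 and 39.8 CPM and the receptor gene Fgfr3 from 2.22, 2.63 and 3.56 CPM to 22.1, 27.96 and 27.6 CPM, while the ligand gene Fgf4 fell as given above. Nodal and TGF-beta genes rose in 10 of 19 and fell in 7 (median log2 0.23), and Hedgehog genes rose in 5 of 11 and fell in 5 (median log2 0.21). The ligand gene Ihh, which endoderm sends to mesoderm, went from 0.171, 0.329 and 0.178 CPM to 25.9, 29.1 and 29.1 CPM (115-fold), while the effector gene Gli2 fell from 140.1, 134 and 139 CPM to 40.7, 47.9 and 51.2 CPM. Retinoic acid genes rose in 7 of 14 and fell in 4. Aldh1a2, which makes retinoic acid, fell from 11.1, 10.7 and 9.97 CPM to 0.892, 1.09 and 1.13 CPM, opposite to Cyp26a1, which breaks it down. Notch genes rose in 7 of 13 and fell in 3 (median log2 0.58), and Hox genes, with 14 of 29 tested, rose in 4 and fell in 2 (median log2 0.37).

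Imprinted genes and the insulin-like growth factor axis were higher. Of 25 imprinted genes 18 rose and 4 fell (median log2 1.07; 13 and 2 against a fold of 1.5), and of 15 genes of the axis 12 rose and 2 fell (median log2 0.95). Igf2, the paternally expressed growth factor, went from 18.1, 19.6 and 17.6 CPM to 792, 664 and 646 CPM (39.1-fold; edgeR adjusted p = 1.45e-10), although 64.5% of its exon bases overlap Gm49394 and the strand setting is not given. Its neighbour H19, a maternally expressed non-coding RNA, went from 58.5, 60.9 and 55.00 CPM to 272, 226 and 225 CPM (4.27-fold). Grb10, an inhibitor of insulin signalling, rose 12.1-fold to 372, 333 and 333 CPM, and the binding protein gene Igfbp5 rose 10.8-fold to 229, 229 and 215 CPM. Snrpn was lower, at 216, 222 and 240.5 CPM against 103, 90.3 and 88.1 CPM. Of 14 germ line genes 7 rose and 4 fell (median log2 0.26). Rhox6 and Rhox9, X-linked homeobox genes of germ line and placenta, rose 173-fold and 26.4-fold, in a cluster of close copies whose single values are uncertain. Mael, which guards germ cells against transposons, fell from 34.7, 29.8 and 33.6 CPM to 4.99, 4.55 and 4.04 CPM, and Dazl, an RNA-binding protein of germ cells, from 47.04, 42.96 and 50.9 CPM to 12.1, 11.02 and 10.99 CPM.

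Genes of mitosis and DNA replication had small changes, with counts of falls to be read against those of other abundant genes. Of the 3109 tested genes with a mean over 100 CPM 41.8% were lower, with a median log2 fold change of -0.10. Of 18 mitosis genes 13 fell and 1 rose (median log2 -0.35), and of 20 DNA replication genes 10 fell and 2 rose (median log2 -0.24). Another 8 DNA replication genes had no call. Against a fold of 1.5, 2 mitosis genes and 1 DNA replication gene fell, where 14.0% of all tested genes did. Top2a, which untangles chromosomes, went from 977, 994 and 1136 CPM to 648, 556 and 549 CPM, and Mki67 from 769, 774 and 842 CPM to 488, 438 and 432 CPM. Of 17 genes of G1 cyclins and inhibitors 9 rose and 2 fell. Ccnd2, a D-type cyclin on chromosome 6, went from 8.04, 9.71 and 7.48 CPM to 231, 230.2 and 223 CPM (27.1-fold). Of 13 tested p53 targets (14 listed) 11 rose and none fell (median log2 0.54). Cdkn1a, the p21 inhibitor, went from 52.7, 49.2 and 50.2 CPM to 164, 152 and 147 CPM, Phlda3 from 26.5, 29.5 and 27.2 CPM to 110.0, 105 and 105 CPM and Btg2 from 24.8, 28.97 and 27.6 CPM to 149.6, 154 and 151 CPM. Immediate early genes rose in 13 of 15 tested and fell in 1 (median log2 2.7). Fos, Atf3 and Fosl2 rose 27.6-fold, 28.3-fold and 29.6-fold, from at most 2.14 CPM in any EBD2 library to at least 31.9 CPM in every EBD6 library.

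Metabolic lists moved in opposite directions. Of 18 cholesterol synthesis genes 15 fell and 1 rose (median log2 -0.60). Of 18 tested lysosome genes (19 listed) 15 rose and 2 fell (median log2 0.55). Tfeb, the master factor of lysosome genes, went from 6.16, 8.39 and 6.05 CPM to 31.03, 36.5 and 35.7 CPM, and the protease gene Ctsc from 46.7, 47.9 and 51.8 CPM to 186, 166 and 161 CPM. Glycolysis and hypoxia genes rose in 12 of 24 and fell in 8 (median log2 0.21), and with GC content and length removed 7 rose. The glucose carrier gene Slc2a3 rose from 375, 379 and 409.6 CPM to 1355, 1249 and 1307 CPM, while Pfkp, a phosphofructokinase, fell from 338, 348 and 366 CPM to 103, 106 and 110.5 CPM and the hypoxia target Egln3 from 79.5, 79.99 and 80.3 CPM to 18.4, 22.7 and 22.5 CPM. Genes of the amino acid response rose in 10 of 18 and fell in 2 (median log2 0.38). Of 17 nuclear genes of oxidative phosphorylation 3 rose and 2 fell (median log2 0.03), and of 14 chaperone genes of the endoplasmic reticulum 2 rose and 1 fell (median log2 -0.08). The 7 tested mitochondrially encoded genes (13 listed) all fell, with a median log2 of -1.04, 4 of them with GC content and length removed. Their levels varied widely within the groups: mt-Co1 stood at 261, 446 and 293 CPM against 202, 83.05 and 156 CPM. Mitochondrial genes took 0.104% to 0.175% of counts in EBD2 and 0.0392% to 0.0935% in EBD6, and the part of this share in the result was not tested. Of 22 ribosomal protein genes 10 fell and 3 rose (median log2 -0.25), and of 12 tested replication histone genes (14 listed) 3 rose and 2 fell (median log2 -0.10). Both sets share sequence with pseudogenes and copies, so single values are uncertain. The ribosomal falls are to be read against the 41.8% lower among tested genes with a mean over 100 CPM. Against a fold of 1.5, 2 ribosomal protein genes fell, where 14.0% of all tested genes did.

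Over all protein-coding genes, the largest rises from outside the lists were again in genes with no or few counts in EBD2. Glipr1, of the family of pathogenesis-related proteins, had no count in EBD2 and 26.6, 22.4 and 24.1 CPM in EBD6, at least 144-fold higher (22.8% of its exon bases overlap Krr1). Adra2b, an adrenergic receptor, had no count in EBD2 and 13.6, 19.9 and 20.7 CPM in EBD6, at least 114-fold higher. Both genes were picked from those whose groups do not overlap, so their separation is no further finding. Cdh6, a cadherin known from the developing kidney, had 3 counts in EBD2 and 114, 108 and 114 CPM in EBD6 (ratio 671, 95% counting interval 229 to 3260). Hkdc1, a hexokinase-like enzyme, went from 0.684, 0.165 and 0.178 CPM to 106, 117 and 120.2 CPM (log2 8.31 ± 0.19, or 9.25 without EBD2 replicate 1). Pcdh7, a protocadherin, had 1 count in EBD2, in replicate 2, and 44.05, 49.9 and 53.3 CPM in EBD6 (ratio 904, 95% counting interval 162 to 35700). Large falls also came from outside the lists. Pet117, a mitochondrial assembly factor, went from 9.07, 12.8 and 13.9 CPM to no count in EBD6, at least 112-fold lower, with 100% of its exon bases shared with Kat14. Olfr307, an olfactory receptor gene, went from 10.6, 9.88 and 11.6 CPM to 3 counts in EBD6 (ratio 100, 95% counting interval 33.8 to 491). Sgo2b, a copy of a centromere protector, fell 42.1-fold, more than Ttn. Smaller falls included Lama3, a laminin chain of epithelial basement membranes, from 83.3, 87.6 and 90.4 CPM to 3.92, 5.01 and 5.17 CPM (18.2-fold), opposite to Lama1. Slfn9, of the Schlafen family, went from 114, 108 and 106 CPM to 5.88, 6.47 and 5.82 CPM (17.9-fold), and Txlnb, a syntaxin-binding protein known from muscle, from 34.6, 39.5 and 37.9 CPM to 1.78, 1.55 and 1.86 CPM (21.5-fold). Stac2 fell 18.1-fold. The X-linked Xlr3a fell from 34.2, 32.4 and 33.3 CPM to 0.713, 1.184 and 1.13 CPM, in a family of close copies. By difference in CPM, the largest falls included genes that every cell uses, though not only such genes. Hsp90ab1, a cytosolic chaperone, went from 2391, 2487 and 2991 CPM to 1474, 1252 and 1326 CPM and the nucleolar gene Npm1 from 1226, 1288 and 1937 CPM to 729, 551 and 566 CPM. In Npm1, and in Ncl at 1671, 1707 and 2308 CPM against 1188, 909 and 917 CPM, EBD2 replicate 3 stood above the other EBD2 libraries, and without it the log2 fold changes were -0.98 for Npm1 and -0.69 for Ncl, against -1.31 ± 0.18 and -0.93 ± 0.15. Huwe1 and Macf1, which are very long transcripts, fell 1.97-fold and 2.12-fold with tight replicates. Actb, often used as a reference gene, rose from 356, 338 and 382 CPM to 906, 846 and 814 CPM (2.38-fold).

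Long intergenic non-coding genes were more often lower than higher in EBD6. Of 406 tested long intergenic non-coding genes 71 were higher and 210 lower, with a median log2 fold change of -0.66, against 5020 higher and 4443 lower of 13752 protein-coding genes with a median of 0.04. Of 689 processed pseudogenes, retrotransposed copies of genes, 40 were higher and 189 lower. Halr1, a non-coding RNA beside the Hoxa cluster, went from 18.99, 19.9 and 15.5 CPM to 1.25, 0.546 and 1.54 CPM. Xist, which coats the inactive X chromosome, was low in both groups, at 19.5, 18.9 and 17.6 CPM against 7.85, 8.56 and 8.32 CPM, with 12.6% of its exon bases shared with Tsix. Of 341 tested antisense genes 81 were higher and 100 lower, with a median log2 fold change of -0.06. The antisense partners of 2 risen genes, chosen after their values were seen, were higher. Six3os1 went from 0.513, 0.658 and 0.712 CPM to 48.3, 50.6 and 55.4 CPM and Igf2os from 0.342, 0.494 and 0 CPM to 80.1, 78.3 and 78.5 CPM. Without a stated strand setting, reads of a gene and of its antisense partner may not have been told apart.

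Genes of chromosome 6 were higher as a whole. Over 547 protein-coding genes of that chromosome with at least 5 CPM, the median log2 fold change was 0.43, a fold of 1.35, with 336 higher (61.4%) and 76 lower (13.9%). On the other 19 chromosomes the medians ran from -0.12 (chromosome 13) to 0.10 (chromosome 8), and 35.8% of 11146 genes were higher and 33.5% lower. The shift lay along the whole chromosome: in 10 consecutive blocks of 54 or 55 genes the medians were 0.22 to 0.58. Against the mean of the EBD2 libraries, the chromosome 6 medians were 0.44, 0.44 and 0.43 in EBD6 and between -0.01 and 0.01 in EBD2. The EBD5 libraries stood at 0.44, 0.47 and 0.47, like EBD6. On the other chromosomes single libraries lay between -0.13 and 0.12 in EBD6 and between -0.27 and 0.20 in EBD5. Chromosome 6 coding genes took 4.66% to 4.71% of all counts in EBD2 and 5.85% to 6.02% in EBD6. With 2 samples against 2, an exact permutation test of these medians cannot give a two-sided p below 0.333 (0.1 for 3 libraries against 3), so none is given. DNA copy number was not measured. With the chromosome's median removed, Tfec, Gata2, Peg10, Ccnd2, Slc2a3, Tet3, Podxl, Evx1 and Col1a2 were still called higher, while Gapdh, at 173, 180.1 and 175 CPM against 214, 223 and 226 CPM (log2 0.32 ± 0.08, called higher), turned to a log2 fold change of -0.16 with no call.

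**Figure D5:**
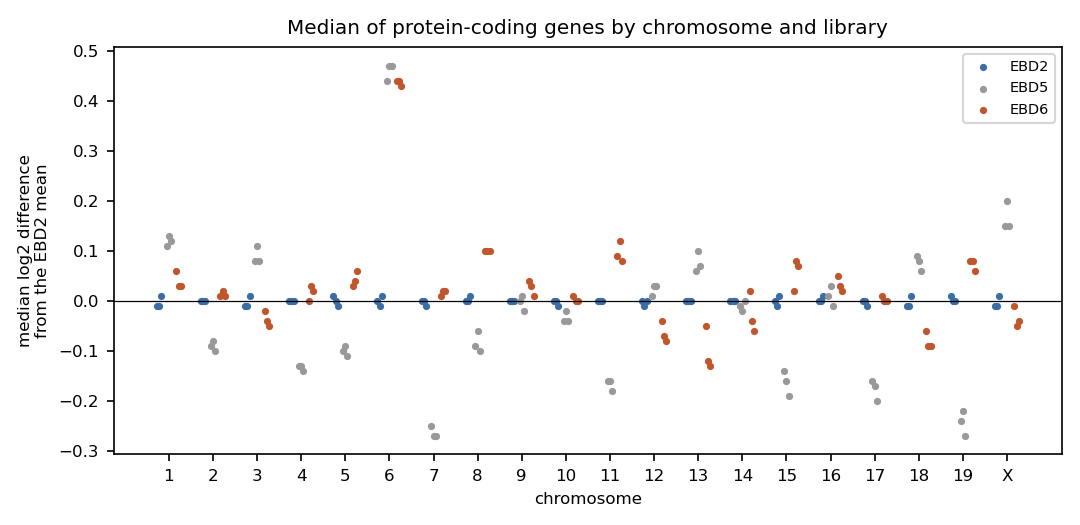
Each point is 1 library and the median, over protein-coding genes of a chromosome with at least 5 CPM, of the log2 difference from the mean of the EBD2 libraries (log2 of CPM plus 0.5). On chromosome 6 the EBD6 libraries (orange) lie at 0.43 to 0.44 and the EBD5 libraries (grey) at 0.44 to 0.47, while elsewhere EBD6 lies between -0.13 and 0.12 and EBD5 between -0.27 and 0.20.

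Markers of other cells that such cultures can hold were also followed. Of 9 tested genes on a list of feeder fibroblast genes (14 listed) 6 rose and 1 fell, and the list's summed level was 55.9 to 58.1 CPM in EBD2 libraries and 175 to 193 CPM in EBD6 libraries. Col1a2 had 3 counts in EBD2, all in replicate 1, and 23.9, 30.3 and 30.1 CPM in EBD6, and Thy1 fell from 21.9, 22.9 and 22.96 CPM to 3.03, 2.37 and 2.75 CPM. These genes are also expressed by embryonic mesenchyme and endoderm, and their part in the results was not tested. Of 12 macrophage and leukocyte genes 3 were tested, 1 higher, 1 lower and 1 with no call (median log2 0.02). Another 4 had no count, and the summed level was 39.5 to 40.4 CPM in EBD2 and 43.9 to 56.0 CPM in EBD6. The only member called higher was Csf1r, which trophoblast also expresses. It had 2 counts in EBD2, both in replicate 3, and 12.3, 16.9 and 19.9 CPM in EBD6.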

How the data were processed

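Polyadenylated RNA was measured in 9 libraries, of which the 3 of EBD2 and the 3 of EBD6 are compared. The values are expected counts as deposited by the authors (RSEM-type read estimates per gene, with fractions), not scaled to depth or length. Per the submitters' processing notes, the tools, listed without roles, were STAR 2.7.10a and RSEM 1.3.30, with cutadapt 1.18, DESeq2 1.38.3 and edgeR 3.40.2, on the build mm10. The strand setting was not given in the sources used here, nor was the annotation release. Per the labels' protocols, RNA was captured on oligo-dT beads and sequenced on NovaSeq and HiSeq instruments, with no library assigned to either.

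The expected counts were rounded. Of 54233 rows 1, named MR3, names no gene and was left out. GENCODE release M21 (mm10) gave symbols and positions for 54165 IDs (99.9%). A second deposited table held the EBD6 libraries with identical values in all 54233 rows. Pairs of libraries within sampling noise (chi-square test, genes with 20 or more counts) were summed. Genes kept by filterByExpr (16168) were TMM-scaled, and edgeR 4.0.16 was run in R 4.3.3 (quasi-likelihood F test, all 3 groups in 1 fit, no covariates, 4 residual degrees of freedom, common biological coefficient of variation 6.72%), and also against a fold of 1.5 (glmTreat). P-values were adjusted by Benjamini-Hochberg over all tested genes. For each SE, the log2 fold change was divided by the root of its F statistic. A fold to a group at 0 was bounded by setting that group to 3 counts in all. At 1 to 3 counts a depth-scaled ratio is printed, and its exact 95% interval covers counting error only. Library totals of 5454268 to 11704761 counts set the depth. The script was tested on simulated counts.

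The 49 lists hold 769 symbols, 54 of them in several lists and 3 without a row. The members and lists were chosen with earlier results of these data known, so lists carry no p. The naming rule allowed, per list and direction, 5 called members with the largest change and at least 5 CPM, members with no call, the 15 largest rises and falls with at least 10 CPM and groups that do not overlap, the 15 largest differences in CPM, 5 non-coding genes per direction, and a set of anchor genes. Of 496 genes so allowed 164 are named, picked after their values were seen; some list members are not reported here singly. Promoters came from RefSeq tables (GRCm38.p6). Alternatives were limma-voom (limma 3.58.1), DESeq2 1.42.0 and its size factors, other filters, EBD2 and EBD6 alone, 9 separate libraries, a replicate block, offsets for GC content and length, each library left out, and, chosen after seeing the data, the median of chromosome 6 removed.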

Additional observations from a re-analysis of the deposited data

Results flagged for a closer look

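The row named MR3, which names no gene of the annotation and entered no comparison, held 3504 counts over the EBD6 libraries, 3 over the EBD2 libraries and 0 over the EBD5 libraries. It drew attention as signal in data outside the main measurement. Per library total, without TMM scaling, it stood at 0.353, 0 and 0.178 CPM in EBD2 replicates 1 to 3 and at 157, 120.0 and 119 CPM in EBD6 replicates 1 to 3. What the name stands for is not given in the sources used here, and its cause was not tested.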

How the results depend on the processing

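Counts of called genes stayed within 1.5 times the reported ones in the alternatives run, except that DESeq2 tested against a fold of 1.5 called 1586 genes higher and 1194 lower, against 2655 and 2263. The cause was not tested. Leaving out each EBD2 and EBD6 library in turn gave 4901 to 5848 genes higher and 4601 to 5162 lower, or 2426 to 2947 and 2085 to 2206 against a fold of 1.5. Same-numbered libraries of the groups did not deviate together (correlations -0.025, 0.03 and -0.073). Because each group holds libraries that differ by sampling noise alone, this cannot tell whether the numbers mark a shared culture. With the replicate block 5367 genes were higher and 5490 lower (2570 and 2311 against a fold of 1.5). With 9 separate libraries 5937 were higher and 5719 lower, and 10568 of 10685 calls were shared. Of 2623 values of the named genes under the alternatives, 2601 kept a call with its direction or stayed without a call. Values without a call in both fits could change sign, as for Zfp42 (log2 -0.13 to 0.21 over the fits). Another 11 lost a call (Hhex, Apoc1, Lrp2 and Gapdh) and 10 gained one (Apoe, Nid2, Nanog, Esrrb, Pax6 and Sox1). A further 1, called in the main fit, turned: Gapdh at -0.16 with the median of chromosome 6 removed. In genes with few EBD2 counts the log2 fold change reached higher values over the alternatives. The highest were 12.22 for Maf, 11.37 for Fgb, 9.81 for Ttr, 9.02 for Amn, 9.59 for Cer1, 9.95 for Sp5, 8.67 for Tpbpa, 8.51 for Bmp2, 10.13 for Cdh6, 11.63 for Pcdh7, 8.71 for Igf2os, 10.82 for Col1a2 and 10.26 for Csf1r. The median of chromosome 6 was 0.40 to 0.48. Of 1568 list counts 89 moved by over 1.5 times, mostly counts of few members. Depth limits the genes with 0 to 3 counts in a group, whose folds are bounds or wide intervals.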
